A study of Mus musculus with 8 samples.

Results

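Foxp3 binding sites that are specific to effector regulatory T (eTreg) cells and lie inside genes were examined across WT and R397W Treg cells. A site was a member when its centre fell within the body of a protein-coding gene in RefSeq (GRCm38.p6), and 535 of the 947 eTreg-specific sites met this rule. They made up 56.5% of their class and were part of 5521 listed sites, the rest of which were common or cTreg-specific. Common sites lay inside genes in 66.5% of cases and cTreg-specific sites in 56.8%. Signal came from CUT&Tag, in which an antibody guides a Tn5 transposase to chromatin so that the DNA around its target is cut and tagged. The cells were CD4+hCD2+GFP- Treg cells, freshly sorted from spleen and lymph nodes of the C57BL6/J strain. The WT group carried Foxp3WT-IRES-hCD2/Foxp3-IRES-GFP and the R397W group carried Foxp3R397W-IRES-hCD2/Foxp3-IRES-GFP. Both genotypes thus shared the GFP-tagged second allele, and the sort kept cells that showed hCD2 and not GFP. Each genotype was profiled with 2 Foxp3 libraries and 2 libraries made with normal rabbit IgG, the background control. The labels number the libraries 1 and 2 but do not tie them to mice, so every p-value measures the spread between these libraries, which may be technical. No treatment or age was given, and the sorted Treg cells were not split into resting and effector cells, so eTreg describes the class of the site and not the cells.

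Foxp3 is the forkhead transcription factor that defines Treg cells, CD4+ T cells that restrain other immune cells. It binds DNA through its forkhead domain, where the R397W missense change lies, and works beside AP-1, NFAT, RUNX and ETS family factors at enhancers. Effector Treg cells are the antigen-experienced form that enters tissues, and their regulatory elements often sit within gene bodies, far from the promoter. A site inside a gene need not act on that gene.

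Of the 535 sites, 9 held a listed start of a protein-coding gene. No start of the host gene was listed for 126 of the 535 sites, so further starts may have been missed. The 250 bases before these 9 starts can be shown from RefSeq (GRCm38.p6). They are the starts of Tigit, Cxcl10, Sult2b1, Dclk1, Ifi203, Fam124b, Hopx, Lcp2 and Slc9b2. Windows of 5 of them follow, 5′ to 3′ on the strand of the gene. Tigit was chosen because its site was among the strongest of all members. The other windows were chosen because they hold the AP-1 letters TGANTCA. Capitals mark the matches, on either strand, to forkhead TGTTTAC, to the T-rich repeat TTTGTTTG that Foxp3 can bind, to AP-1 TGANTCA, to the NFAT core GGAAA, to RUNX TGTGGTT and to ETS ACAGGAAG. The windows are chr16:43664185-43664434 (minus strand) for Tigit, chr5:92348890-92349139 (minus) for Cxcl10, chr7:45742479-45742728 (minus) for Sult2b1, chr3:55461478-55461727 (plus) for Dclk1 and chr1:173942673-173942922 (minus) for Ifi203.
Tigit: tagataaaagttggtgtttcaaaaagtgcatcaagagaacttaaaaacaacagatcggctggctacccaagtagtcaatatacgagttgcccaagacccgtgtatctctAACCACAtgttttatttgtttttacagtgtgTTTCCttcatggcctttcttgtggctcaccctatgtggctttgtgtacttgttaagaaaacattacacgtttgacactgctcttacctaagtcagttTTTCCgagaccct
Cxcl10: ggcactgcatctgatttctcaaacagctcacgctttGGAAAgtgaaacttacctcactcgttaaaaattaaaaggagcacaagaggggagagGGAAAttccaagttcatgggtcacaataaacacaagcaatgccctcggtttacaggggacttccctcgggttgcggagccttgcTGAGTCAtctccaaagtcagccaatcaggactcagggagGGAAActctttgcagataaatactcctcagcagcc
Sult2b1: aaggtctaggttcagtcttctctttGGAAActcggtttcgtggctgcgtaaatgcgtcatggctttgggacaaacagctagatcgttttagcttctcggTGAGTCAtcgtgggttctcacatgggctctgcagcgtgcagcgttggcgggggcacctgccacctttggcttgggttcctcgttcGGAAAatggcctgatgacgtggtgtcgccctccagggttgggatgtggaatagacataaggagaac
Dclk1: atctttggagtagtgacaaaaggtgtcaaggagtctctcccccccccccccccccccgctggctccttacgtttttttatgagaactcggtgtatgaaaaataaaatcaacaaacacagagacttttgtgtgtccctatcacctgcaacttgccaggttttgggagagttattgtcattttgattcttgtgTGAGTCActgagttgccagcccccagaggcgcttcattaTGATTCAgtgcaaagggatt
Ifi203: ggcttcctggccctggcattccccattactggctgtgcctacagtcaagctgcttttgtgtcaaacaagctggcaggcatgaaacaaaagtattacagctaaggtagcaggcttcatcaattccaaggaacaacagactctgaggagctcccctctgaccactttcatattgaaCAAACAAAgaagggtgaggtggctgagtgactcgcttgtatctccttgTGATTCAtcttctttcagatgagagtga

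AP-1 letters stood in 4 of the 9 windows, those of Cxcl10, Dclk1, Ifi203 and Sult2b1, and in 6.13% of the 21263 protein-coding promoter windows of the same length. Each of these matches fell within the eTreg-specific site itself, and Dclk1 had 2 of them. The NFAT core stood in 7 of 9 windows, against 54.6% of all promoters. In Lcp2 and Hopx it fell outside the eTreg-specific site, which covers only 38 and 50 bases of their windows. The RUNX letters occurred in Tigit alone (3.82% of all promoters), the T-rich repeat in Ifi203 alone (2.03%) and the forkhead letters in Fam124b alone (2.62%). The ETS letters were in none of the 9 (2.62% of all). The adjacent and the spaced BATF-IRF composite motifs, which contain the AP-1 letters, were in none either (0.103% and 0.0611% of all promoters). These counts describe letters in 9 windows, and the other 526 sites were not searched because no genome sequence was used here.

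Among these 9 sites, the Tigit start held the clearest Foxp3 signal. Tigit encodes an inhibitory receptor of effector T and Treg cells. Values throughout are normalised read counts per 400 bp site, which the submitters label as spike-in normalised. The Tigit site had 304 and 104 in the WT Foxp3 libraries, 119 and 41.4 in the R397W Foxp3 libraries, and with IgG 11.9 and 0 (WT) and 49.6 and 0 (R397W). Both WT Foxp3 libraries stood above both WT IgG libraries, whereas WT and R397W Foxp3 values overlapped. Its mean was 204 ± 141 (SD, n = 2) in WT and 80.4 ± 55.2 in R397W, a log2 change of -1.33 (SE 0.87, adjusted p = 1, limma). Foxp3 over IgG in WT was 5.64 on that log2 scale (SE 2.58, adjusted p = 0.991, limma), and no member passed that test after adjustment.

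The other 8 sites with a listed start showed no such separation, apart from Slc9b2, which encodes a sodium/proton exchanger. Its values were 90.9 and 130 in WT Foxp3, 88.0 and 162 in R397W Foxp3, and with IgG 85.5 and 74.5 (WT) and 27.3 and 317 (R397W). WT Foxp3 thus lay above WT IgG without overlap, by a small margin, and R397W IgG held both the lowest and the highest value. At the start of Cxcl10, a chemokine gene that lies within Art3, the values were 45.9 and 1.15 in WT Foxp3, 88.0 and 0 in R397W Foxp3, and with IgG 23.9 and 0 (WT) and 59.5 and 165 (R397W). The Sult2b1 start, of a sterol sulfotransferase, had 52.0 and 56.4 in WT Foxp3, 62.8 and 8.59 in R397W Foxp3, and with IgG 123 and 64.2 (WT) and 17.4 and 246 (R397W). Here both WT IgG libraries exceeded both WT Foxp3 libraries. The same held for Dclk1, a kinase gene, with 31.4 and 37.5 in WT IgG against 18.2 and 26.9 in WT Foxp3. The starts of Ifi203, Fam124b, Hopx and Lcp2 (the T cell adaptor SLP-76) had Foxp3 values that overlapped those of IgG in each genotype.

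**Figure D1:**
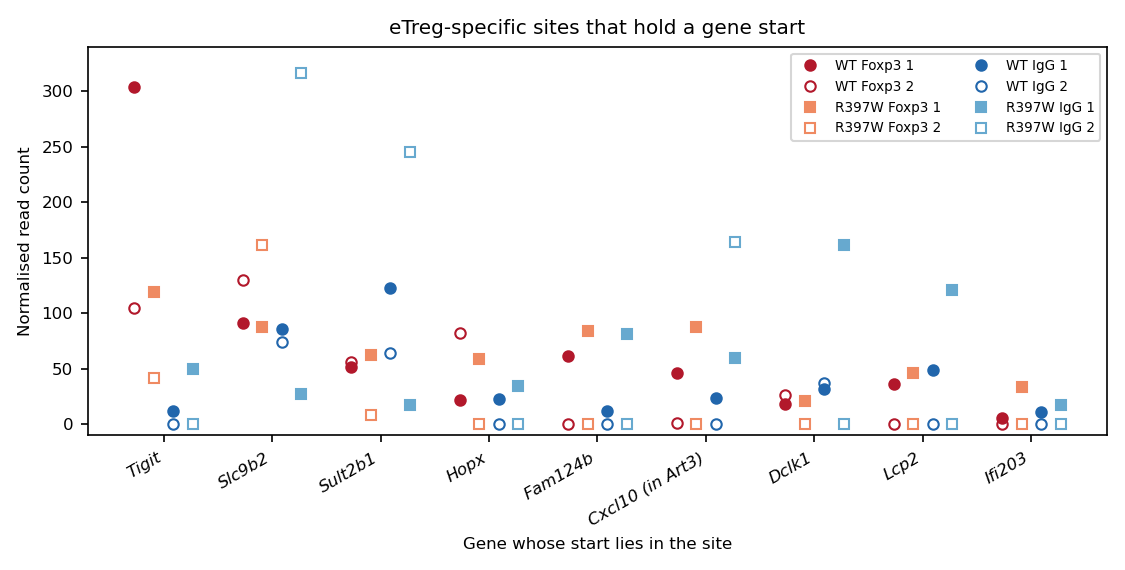
Normalised read count of each library (y axis) at the 9 eTreg-specific sites that hold a listed gene start (x axis). Filled symbols are replicate 1 and open symbols replicate 2, circles WT and squares R397W, reds Foxp3 and blues IgG. Tigit is the site where both WT Foxp3 libraries, at 304 and 104, stand far above both WT IgG libraries, at 11.9 and 0.

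The libraries differed in how many sites they reached, and replicate 2 was the sparser one in each group. The members held 24061 and 30138 reads in the WT Foxp3 libraries, 7449 and 18341 in R397W Foxp3, and with IgG 20510 and 15512 (WT) and 7244 and 14515 (R397W). These reads were 5.38% (95% Wilson interval 5.30 to 5.46, WT IgG replicate 2) to 8.60% (8.50 to 8.71, WT Foxp3 replicate 1) of those in all listed sites. At least 1 read fell in 97.6% and 54.2% of members in WT Foxp3, 79.1% and 36.6% in R397W Foxp3, and with IgG 69.2% and 23.7% (WT) and 73.3% and 27.9% (R397W). One read was worth 0.866 and 0.384 in the WT Foxp3 libraries and 2.09 and 0.781 in the R397W Foxp3 libraries. A value of 0 therefore allows a true value of up to 2.60 and 1.15 in WT Foxp3 and up to 6.28 and 2.34 in R397W Foxp3 (3 reads, counting error only). Marker genes bear on binding here, not on expression. The body of Foxp3 held 1 common site, Il2ra 4 common and 1 cTreg-specific, Ctla4 1 eTreg-specific and Ikzf2 4 common and 2 eTreg-specific. The B cell, myeloid and CD8 T and NK markers Cd79a, Ms4a1, Lyz2, Csf1r, Itgam, Cd8a, Cd8b1 and Nkg7 held none. Of all 21900 protein-coding genes only 1878 held a listed site of any class, so the absence at these few markers says little.

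Averaged over both libraries, signal at the members was higher with the Foxp3 antibody than with IgG in WT cells and not in R397W cells, but single libraries of the antibodies overlapped in both genotypes. The WT Foxp3 libraries averaged 39.0 and 21.6 per site and the WT IgG libraries 24.1 and 15.8, so the ratio within a replicate number was 1.62 and 1.37. In R397W the Foxp3 libraries averaged 29.2 and 26.8 and the IgG libraries 33.6 and 25.8, with ratios of 0.869 and 1.04. The mean ratio was 1.49 ± 0.173 (SD, n = 2) in WT and 0.953 ± 0.119 in R397W, and the values of the genotypes did not overlap (a description, without a test). That separation rests on dividing libraries of the same number, a tie the labels do not establish. With each Foxp3 library divided by the other IgG library, the ratios were 2.47 and 0.897 in WT and 1.13 and 0.797 in R397W, which overlap. The ratio of the group means, which needs no pairing, was 1.52 in WT and 0.942 in R397W. The ratio over all listed sites was 1.39 ± 0.224 in WT and 1.08 ± 0.0133 in R397W. Across genotypes the mean of the WT Foxp3 libraries, 30.3 ± 12.3, was within its spread of the R397W mean of 28.0 ± 1.69, and the IgG means were 19.9 ± 5.89 and 29.7 ± 5.48. With 1 scaling factor per library over all listed sites, in place of a separate one per class, the ratios were 1.90 in WT and 1.22 in R397W. The deposited factors were set within each class, so levels are compared between libraries at these sites and not between classes.

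**Figure D2:**
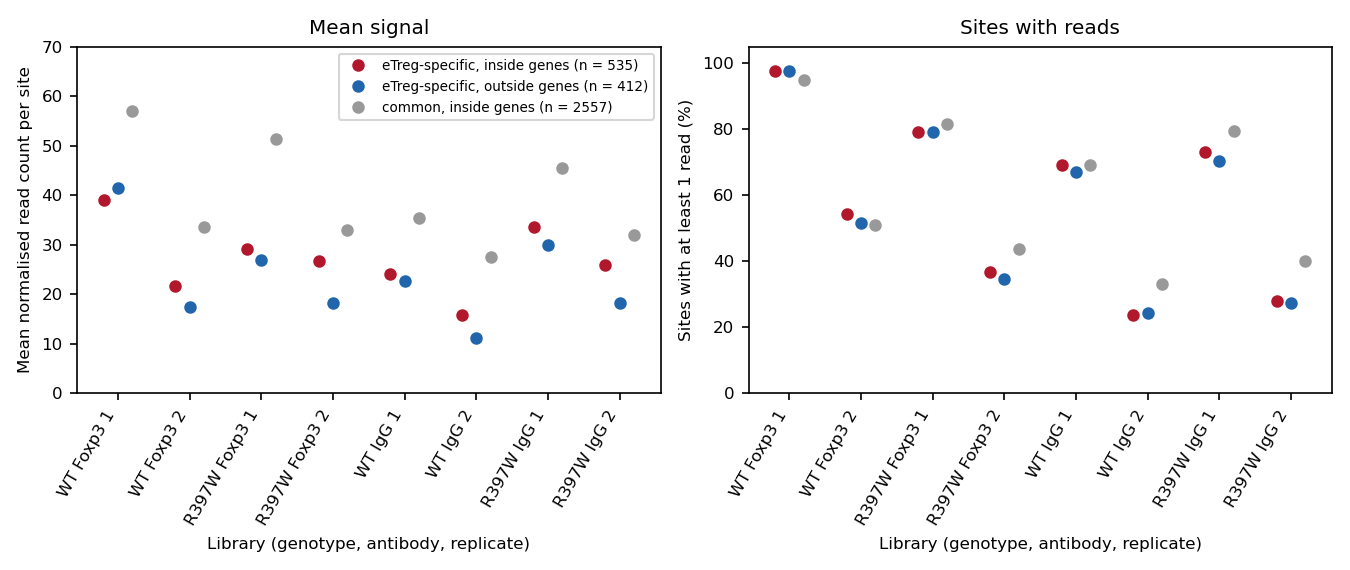
Mean normalised read count per site (left) and percentage of sites with at least 1 read (right) in each of the 8 libraries, for eTreg-specific sites inside genes, eTreg-specific sites outside genes and common sites inside genes. At the eTreg-specific sites inside genes the WT Foxp3 libraries reach means of 39.0 and 21.6. Replicate 2 has reads at fewer sites than replicate 1 in every group. Common and eTreg-specific sites have separate scaling factors, so their levels are not compared.

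The 412 eTreg-specific sites outside genes are fewer, and held fewer reads in every library. Per site, however, the mean normalised read count was lower inside than outside genes in WT Foxp3 replicate 1, at 39.0 against 41.4, and higher inside in the other 7 libraries, for example 26.8 against 18.3 in R397W Foxp3 replicate 2. The log2 ratio of reads inside to outside was 0.29 and 0.69 in WT Foxp3, 0.49 and 0.93 in R397W Foxp3, and with IgG 0.46 and 0.88 (WT) and 0.54 and 0.89 (R397W). Scaling factors cancel in this ratio, and replicate 2 lay above replicate 1 in each group. The Foxp3 mean was 0.49 ± 0.29 (SD, n = 2) in WT and 0.71 ± 0.31 in R397W, a difference of 0.22 that is smaller than the spread between replicates. Within replicate numbers the difference was 0.20 and 0.23, both with R397W higher, and no test was made of it. For IgG the difference was 0.04, with 0.07 and 0.01 within replicate numbers. Outside genes the Foxp3 to IgG ratio of means was 1.69 ± 0.189 in WT and 0.953 ± 0.0789 in R397W, next to 1.49 and 0.953 inside.

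Most members lay deep within their host genes. A start of the host gene was listed for 409 of the 535 sites, and the median distance from the site centre to the nearest one was 30.0 kb. Only 13 sites (3.18%) lay within 1 kb of it and 318 (77.8%) lay beyond 10 kb. The cTreg-specific sites inside genes had a similar layout, with a median of 33.2 kb and 3.08% within 1 kb. Common sites inside genes had a median of 19.8 kb and 16.4% within 1 kb. Exon and intron positions were not analysed here. At the 13 sites near a start the WT Foxp3 means were 57.5 and 36.3, against 35.2 and 18.6 at the 318 sites beyond 10 kb. The WT IgG means of the same sites were 33.1 and 14.0 near a start and 21.1 and 14.8 beyond 10 kb. In R397W Foxp3 the libraries went in opposite directions, with 44.2 and 17.5 near a start and 26.3 and 21.8 beyond 10 kb, while R397W IgG was higher near a start, at 44.1 and 45.2 against 29.6 and 20.3.

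**Figure D3:**
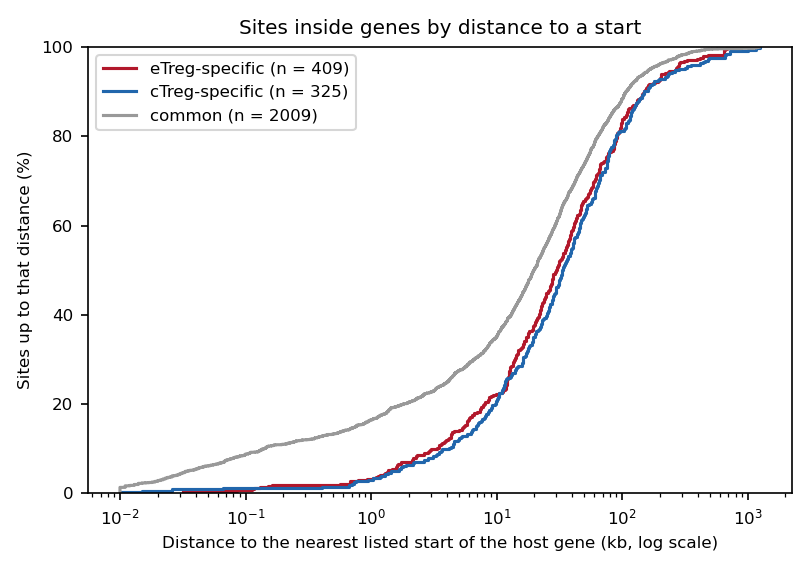
Cumulative percentage of sites inside genes (y axis) by distance to the nearest listed start of the host gene (x axis, kb, log scale), for eTreg-specific, cTreg-specific and common sites. At 1 kb the eTreg-specific curve stands at 3.18% and the common curve at 16.4%, and distances under 0.01 kb are drawn at 0.01 kb.

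All 535 members span 400 bp, and 525 lie wholly inside a gene body. Among the 10 that cross a gene end, the centre of the Lpxn site was 20 bp and that of the Nfe2 site 45 bp inside. The Lpxn values were 29.4 and 0 in WT Foxp3 and 33.5 and 0 in R397W Foxp3, and the Nfe2 values were 53.7 and 99.8 in WT Foxp3 and 46.1 and 88.2 in R397W Foxp3. Just outside, the centres of the sites at Dmpk, Mbnl1 and Casp4 missed the gene by 11, 74 and 141 bp. At Dmpk the values were 30.3 and 4.61 in WT Foxp3 and 16.8 and 138 in R397W Foxp3. The Mbnl1 site had 0 in both WT Foxp3 libraries and 14.7 and 150 in R397W Foxp3, and the Casp4 site 6.06 and 0.384, then 4.19 and 0.

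The members fell in 401 host genes, and 6 sites lay in 2 overlapping genes at once, as in Sla and Tg, which share their 3 sites. A single site was held by 314 genes, 2 sites by 59 and 3 or more by 28. Those 28 genes held 106 of the 535 sites. Genes with several sites were long. The median length was 79.3 kb for hosts of 1 site, 164 kb for hosts of 2 and 173 kb for hosts of 3 or more, next to 17.1 kb for all 21900 protein-coding genes and 58.8 kb for the 1878 genes with a listed site of any class. A common site was also present in 170 hosts (42.4%), and in 21 of the 28 genes with 3 or more members. A cTreg-specific site was present in 42 hosts (10.5%), and 223 held neither. Sites of genes with 3 or more members averaged 35.2 and 17.4 in WT Foxp3, 26.2 and 25.5 in R397W Foxp3, and with IgG 20.1 and 15.0 (WT) and 24.9 and 21.6 (R397W). Sites alone in their gene averaged 39.4 and 23.4, 30.4 and 28.3, 25.3 and 14.8, and 36.7 and 28.8 in the same order, so number did not go with a higher signal.

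Several of these genes form runs. The median distance of a member to the nearest other eTreg-specific site was 145 kb, but 70 members had one within 5 kb and 139 within 20 kb. When neighbours up to 50 kb apart are joined, the longest run of members holds 11 sites over 129 kb of chromosome 8, 6 in Chd9 and 5 in Rbl2. Rora has a run of 7 over 43.0 kb, Bcl2l15 and Ptpn22 share a run of 7 over 56.1 kb, and Fnbp1 and Gpr107 share a run of 6 over 98.0 kb. The 11 sites of Chd9 and Rbl2 summed to 114 and 15.0 in WT Foxp3, 98.5 and 78.1 in R397W Foxp3, and with IgG 56.6 and 1.09 (WT) and 156 and 35.2 (R397W). The longest run was thus weak, and its genotypes overlapped. Among the runs of 4 or more sites, that of Rin2 was the most closely packed. It had 0.395 sites per kb, against 0.0852 in the run of Chd9 and Rbl2. Shorter runs could be tighter, such as the 2 sites of Akap13 within 1.15 kb.

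Rora, which encodes the nuclear receptor RORα found in effector and tissue Treg cells, held the most sites. All 7 lie on chromosome 9 between 69297815 and 69340819 (mm10), within 43.0 of the gene's 735 kb. Their centres lie 644 kb or more beyond the nearest listed start. Summed over the 7 sites, the values were 262 and 99.8 in WT Foxp3, 145 and 0 in R397W Foxp3, and with IgG 211 and 62.0 (WT) and 104 and 89.5 (R397W). R397W Foxp3 replicate 2 had no read at any of the 7, while the other R397W Foxp3 library had reads at all 7. That sparse replicate 2 library had no read at 63.4% of all members, and none at any site of Chd9, Fryl, Tox or Rin2. With IgG, replicate 2 had reads at only 1 of the 7 Rora sites in each genotype. The WT Foxp3 mean of the Rora sums was 181 ± 114 (SD, n = 2) and the R397W mean 72.3 ± 102, which differ by less than the spread. At the strongest Rora site (69304547 to 69304947) the values were 78.8 and 56.4 in WT Foxp3, 16.8 and 0 in R397W Foxp3, and with IgG 10.1 and 0 (WT) and 49.6 and 89.5 (R397W). It is the only Rora site where both R397W Foxp3 libraries lie below both WT ones, and the only one where both WT Foxp3 libraries exceed both WT IgG libraries. Its difference of Foxp3 over IgG between genotypes was -8.35 on the log2 scale (adjusted p = 0.9997, limma).

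Atxn1, Ptpn22 and Chd9 held 6 sites each. Atxn1 encodes ataxin 1, a transcriptional regulator. Its sites summed to 267 and 73.3 in WT Foxp3, 199 and 54.7 in R397W Foxp3, and with IgG 69.8 and 44.1 (WT) and 52.1 and 257 (R397W). WT Foxp3 exceeded WT IgG in both replicates, and the genotypes overlapped. Ptpn22 encodes a phosphatase that dampens T cell receptor signalling. Its sums were 141 and 24.6 in WT Foxp3, 81.7 and 205 in R397W Foxp3, and with IgG 101 and 144 (WT) and 99.2 and 122 (R397W). The first Ptpn22 site, 2.30 kb before the nearest start, held most of this signal, with 90.1 and 24.6 in WT Foxp3 and 77.5 and 172 in R397W Foxp3. Chd9, a chromatin remodeller, was weak throughout, with sums of 39.8 and 15.0 in WT Foxp3, 50.3 and 0 in R397W Foxp3, and with IgG 6.29 and 0 (WT) and 57.0 and 0 (R397W).

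Fryl, Tox, Rbl2 and Alpk2 held 5 sites each. Fryl also held 11 common sites, the most among the 12 genes described here. Its eTreg-specific sites summed to 71.9 and 162 in WT Foxp3, 71.2 and 0 in R397W Foxp3, and with IgG 96.2 and 1.09 (WT) and 102 and 0 (R397W). One Fryl site accounted for most of the second value, with 37.2 and 148 in WT Foxp3 against 12.6 and 0 in R397W Foxp3. Tox, a transcription factor gene of T cell development and exhaustion, summed to 112 and 8.06 in WT Foxp3, 37.7 and 0 in R397W Foxp3, with IgG 50.3 and 0 (WT) and 0 in both R397W libraries. The Tox values are thus carried by replicate 1, and the genotypes overlapped. Rbl2, a pocket protein of the cell cycle, had sums of 74.5 and 0 in WT Foxp3, 48.2 and 78.1 in R397W Foxp3, and with IgG 50.3 and 1.09 (WT) and 99.2 and 35.2 (R397W).

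Alpk2, an alpha kinase gene, had the highest summed Foxp3 signal of the genes with 3 or more sites, and no common or cTreg-specific site. The sums were 488 and 498 in WT Foxp3, 377 and 263 in R397W Foxp3, and with IgG 214 and 53.8 (WT) and 278 and 233 (R397W). Both R397W Foxp3 libraries lay below both WT Foxp3 libraries, with means of 320 ± 80.5 and 493 ± 6.64 (SD, n = 2). Most of it came from a single site on chromosome 18 (65381626 to 65382026), the member with the highest WT Foxp3 mean (343). Tigit was higher in WT Foxp3 replicate 1 and Plekha2 in WT Foxp3 replicate 2. That site had 254 and 433 in WT Foxp3, 126 and 231 in R397W Foxp3, and with IgG 113 and 52.2 (WT) and 91.7 and 167 (R397W). Its log2 change was -0.95 (SE 0.55, adjusted p = 1, limma), and Foxp3 over IgG in WT was 2.09 (SE 0.77, adjusted p = 0.991). The other 4 Alpk2 sites form a run of 30.4 kb with sums of 235 and 65.3 in WT Foxp3 and 251 and 32.0 in R397W Foxp3, which overlap.

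Osbpl3, Exoc2, Rin2 and Slc9a9 held 4 sites each, and all but Exoc2 lacked a common site. Osbpl3, an oxysterol-binding protein gene, summed to 374 and 208 in WT Foxp3, 310 and 119 in R397W Foxp3, and with IgG 311 and 113 (WT) and 498 and 614 (R397W). The IgG sums in R397W exceeded every Foxp3 sum. Its 4 sites did not agree in order, since 1 was lower in both R397W Foxp3 libraries (120 and 111 against 58.7 and 0) and 1 higher (43.3 and 0 against 50.3 and 59.3). Exoc2, a subunit of the exocyst, had sums of 172 and 81.0 in WT Foxp3, 176 and 383 in R397W Foxp3, and with IgG 186 and 362 (WT) and 86.8 and 89.5 (R397W). Both R397W values lay above both WT values, with means of 280 ± 147 and 127 ± 64.6, while WT IgG reached the same levels. Rin2, a gene of endosomal traffic, packed its 4 sites into 10.1 kb and summed to 144 and 62.2 in WT Foxp3 and 60.7 and 0 in R397W Foxp3, next to 89.3 and 0 (WT) and 52.1 and 118 (R397W) with IgG. Slc9a9, an endosomal sodium/proton exchanger gene, spread its sites over 474 kb and had 93.5 and 10.4 in WT Foxp3 and 71.2 and 29.7 in R397W Foxp3, next to 42.8 and 0 and 39.7 and 162 in the IgG libraries.

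**Figure D4:**
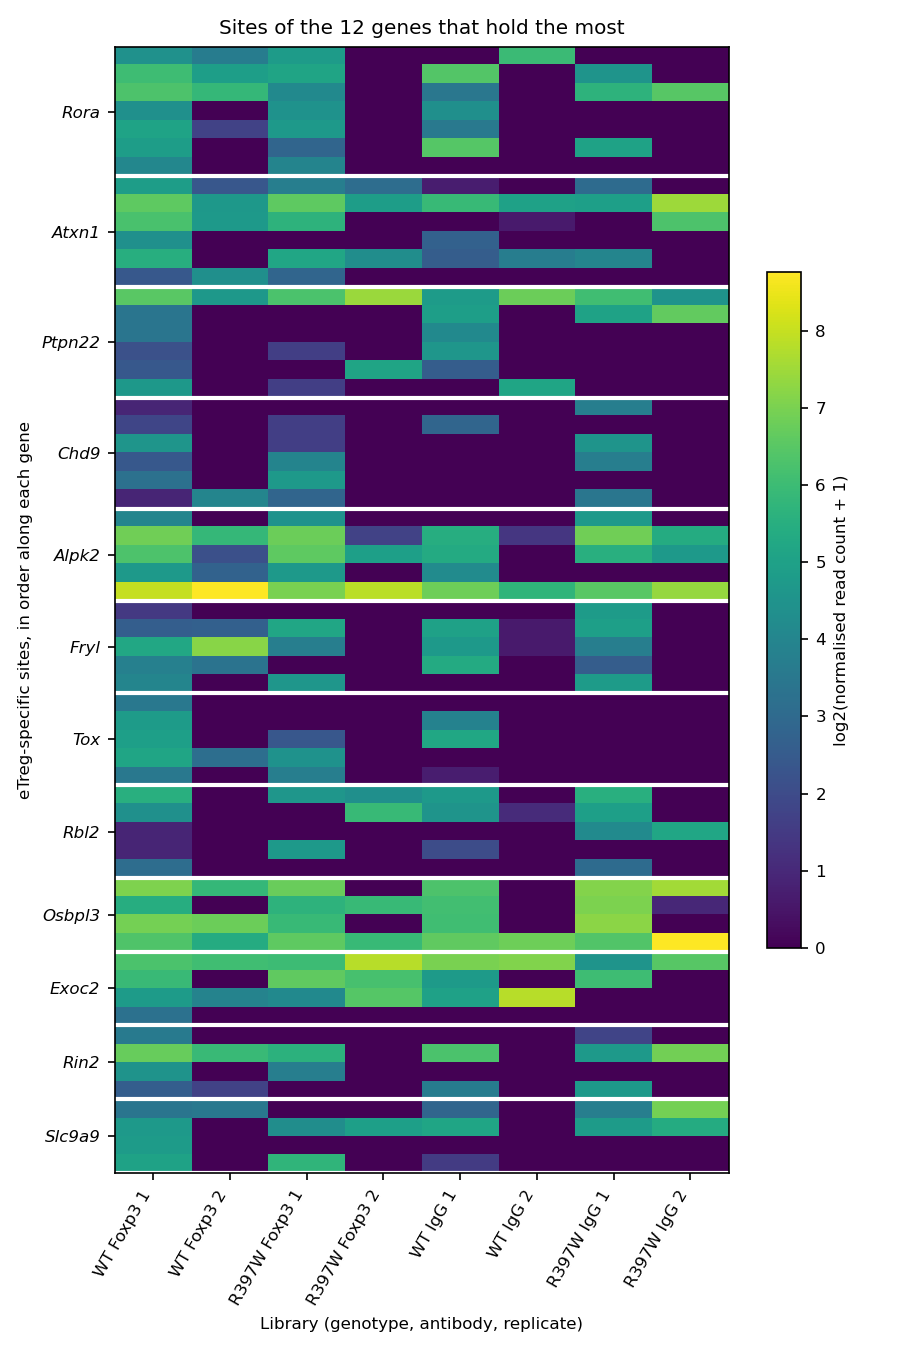
Heat map of log2(normalised read count + 1) for the 61 eTreg-specific sites of the 12 genes that hold the most (rows, in order along each gene) in each library (columns). Alpk2 has the strongest site, at 254 and 433 in WT Foxp3. R397W Foxp3 replicate 2 is at 0 at all 7 Rora sites and at all sites of Chd9, Fryl, Tox and Rin2.

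No member passed the genotype test. Over all 5521 sites, limma on log2(value + 1) called 0% for R397W against WT in the Foxp3 libraries at an adjusted p of 0.05. At an unadjusted p of 0.05, 1 member was lower (0.187%, against 0.272% of all sites) and none higher (0.0543% of all sites), and the lowest adjusted p was 1. The quasi-likelihood test of edgeR on recovered reads also called none, with 7 members at an unadjusted p of 0.05 (4 lower and 3 higher, together 1.31% against 0.725% of all sites). DESeq2 called none, with 12 (8 lower and 4 higher, together 2.24% against 1.09%). Without WT Foxp3 replicate 2, limma called 78 members, all lower and all with 0 in both R397W Foxp3 libraries (14.6%, against 11.6% of all sites). In that fit only the R397W Foxp3 libraries give a spread, which is 0 where both are 0, so these calls rest on the zeros. The median log2 change over the members was -0.70, next to -0.39 over all sites, with 350 members lower, 180 higher and 5 equal. It was -0.41 when the 87 members at 0 in both R397W Foxp3 libraries and the 9 at 0 in both WT Foxp3 libraries were set to the bound that 3 reads allow. The deposited factors differ between classes. With 1 factor per library over all sites, the median was -0.88 over the members and -0.33 over all sites. The member median under the deposited factors rested on single libraries. It was 0.07 without WT Foxp3 replicate 1, -2.04 without WT Foxp3 replicate 2, -1.95 without R397W Foxp3 replicate 1 and 0.15 without R397W Foxp3 replicate 2.

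Counted by library order, both R397W Foxp3 libraries lay below both WT Foxp3 libraries at 85 members (15.9%), next to 12.6% of all listed sites. They lay above both at 28 members (5.23%), next to 6.43% of all sites. The same order in the IgG libraries was R397W lower at 25 members (4.67%, against 5.51% of all sites) and higher at 49 (9.16%, against 11.3%). Among the eTreg-specific sites outside genes the lower order held at 17.0%. Reads in both WT Foxp3 libraries and in neither R397W Foxp3 library were found at 23 members (4.30%, against 2.12% of all sites), and the reverse at none (0.145% of all sites). Within replicate 1, R397W was lower at 362 members (67.7%, against 60.7% of all sites) and higher at 163 (30.5%, against 37.7%). Within replicate 2 it was lower at 205 (38.3%, against 36.9%), higher at 146 (27.3%, against 28.7%) and equal at 184.

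Among the members whose Foxp3 values did not overlap, the 4 with the largest fitted loss all had 0 in both R397W Foxp3 libraries. Tbc1d4, a Rab GTPase-activating protein gene, had 73.6 and 52.6 in WT Foxp3, and with IgG 5.03 and 0 (WT) and 49.6 and 0 (R397W). Its WT Foxp3 mean was at least 14.6-fold higher than the R397W floor of 3 reads per library. At Cd9, a tetraspanin gene, WT Foxp3 had 78.0 and 27.3, WT IgG 14.5 and 0, and R397W IgG 44.6 and 0, and the WT mean was at least 12.2-fold higher. Ldlrad4, whose product restrains TGF-beta signalling, had 65.8 and 41.1 in WT Foxp3, 59.7 and 0 in WT IgG and 0 in both R397W IgG libraries, at least 12.4-fold higher in WT. At Prrc2b WT Foxp3 had 28.6 and 49.9, WT IgG 77.3 and 0, and R397W IgG 71.9 and 0.952, at least 9.10-fold higher in WT. In Tbc1d4 and Cd9 both WT Foxp3 libraries also stood above both WT IgG libraries, and in Ldlrad4 and Prrc2b they did not. None of the 4 passed with all libraries (adjusted p = 1, limma). Without WT Foxp3 replicate 2 the log2 changes were -6.22 at Tbc1d4, -6.30 at Cd9, -6.06 at Ldlrad4 and -4.89 at Prrc2b. A test of that fit cannot decide here, since a lone WT library gives no spread and the R397W Foxp3 values are all 0.

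The largest fitted gains among the members without overlap were in Havcr2, Dock2, Marchf3 and Exoc2. Havcr2 encodes the inhibitory receptor TIM-3, and its site had 0.866 and 0 in WT Foxp3, 18.9 and 105 in R397W Foxp3, and with IgG 2.51 and 0 (WT) and 34.7 and 0 (R397W). At Dock2, an activator of Rac in lymphocyte migration, the values were 3.46 and 0 in WT Foxp3, 12.6 and 67.2 in R397W Foxp3, and with IgG 2.51 and 7.62 (WT) and 42.2 and 0 (R397W). Marchf3, a membrane ubiquitin ligase gene, had 5.20 and 0 in WT Foxp3, 12.6 and 85.1 in R397W Foxp3 and 0 in all 4 IgG libraries. In these 3 sites the WT Foxp3 values were at most 6 reads, and R397W replicate 2 held the highest value. The Exoc2 site had 59.8 and 0 in WT Foxp3, 96.4 and 73.4 in R397W Foxp3, and with IgG 26.4 and 0 (WT) and 64.5 and 0 (R397W). Their log2 changes ran from 3.45 (SE 2.29) to 5.07 (SE 3.44), with an adjusted p of 1 at each (limma), and depend on the pseudocount where WT values are a few reads. The Exoc2 change of 3.45 rested on single libraries, since leaving out WT Foxp3 replicate 2 gave 0.49 and leaving out the first WT Foxp3 library gave 6.41. In edgeR it was 1.51. Without R397W Foxp3 replicate 2 the change was 3.86 at Havcr2, 2.68 at Dock2 and 2.45 at Marchf3.

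Among the 6 members with the highest WT Foxp3 mean, Acot7 showed the largest genotype difference. Acot7 encodes an acyl-CoA thioesterase. Its site, 12.2 kb from the nearest listed start, on chromosome 4 (152197574 to 152197974), had 141 and 408 in WT Foxp3, 44.0 and 0 in R397W Foxp3, and with IgG 45.9 and 92.5 (WT) and 17.4 and 0 (R397W). The R397W Foxp3 values lay below both WT ones, and R397W IgG lay below WT IgG as well. The log2 change was -5.17 (SE 1.96, adjusted p = 1, limma), and in edgeR it was -3.70 with an adjusted p of 0.0752. Leaving out R397W Foxp3 replicate 2 moved it to -2.42. At Galnt9, which starts O-glycan chains, the values were 202 and 377 in WT Foxp3, 189 and 116 in R397W Foxp3, and with IgG 142 and 128 (WT) and 270 and 346 (R397W). Foxp3 did not overlap between genotypes there (log2 change -0.89, SE 0.57, adjusted p = 1, limma), and in R397W IgG exceeded Foxp3.

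The 2 remaining strong sites followed single libraries. Plekha2, a lipid-binding adaptor gene, had 190 and 446 in WT Foxp3, 69.1 and 452 in R397W Foxp3, and with IgG 195 and 46.2 (WT) and 81.8 and 588 (R397W). Mpp2, a membrane scaffold gene, had 90.9 and 339 in WT Foxp3, 81.7 and 478 in R397W Foxp3, and with IgG 196 and 473 (WT) and 233 and 460 (R397W). At Mpp2 IgG exceeded Foxp3 within each replicate of WT, and the genotypes overlapped at both sites. Log2 changes were -0.72 (SE 0.94) at Plekha2 and 0.17 (SE 1.01) at Mpp2, neither beyond its error, and the sign at Mpp2 turned to -0.07 with equal totals.

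**Figure D5:**
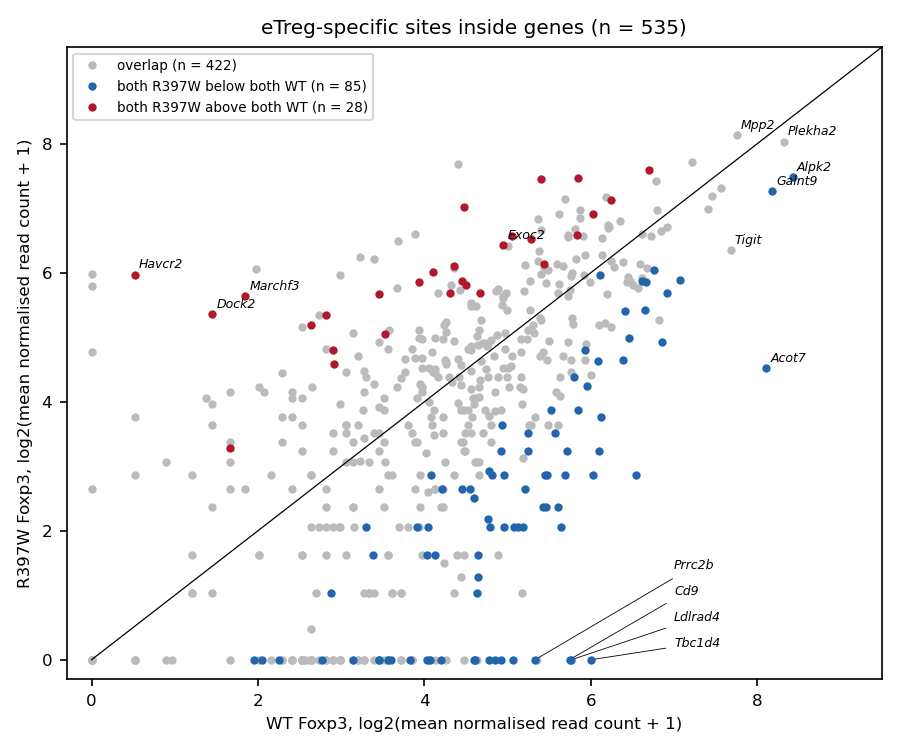
R397W against WT for the 535 eTreg-specific sites inside genes, each axis the log2(mean normalised read count + 1) of 2 Foxp3 libraries, with the line of equal values. Blue points (85) have both R397W libraries below both WT libraries, red points (28) the reverse and grey points (422) overlap.

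Foxp3 signal stood above IgG at more members in WT than in R397W cells. Both WT Foxp3 libraries exceeded both WT IgG libraries at 122 members (22.8%), next to 19.5% of all sites, and lay below both at 18 (3.36%), next to 4.84%. In R397W these counts were 43 above (8.04%, against 10.4% of all sites) and 44 below (8.22%, against 7.84%). The limma test of Foxp3 against IgG called 0.0725% of all sites in WT, none of them a member, and 0% for the R397W libraries. Testing whether that contrast differed by genotype called 0% as well. At an unadjusted p of 0.05 in WT, 8 members were higher with Foxp3 (1.5%, against 2.41% of all sites) and none lower (0.163% of all sites). In R397W 4 were higher (0.748%, against 0.906%) and 2 lower (0.374%, against 0.561%). For the difference between genotypes 6 were lower (1.12%, against 1.38%) and 1 higher (0.187%, against 0.272%). Each of these shares of members lay below that of all sites, and the lowest adjusted p-values were 0.991, 1 and 0.9997 (limma). On the recovered reads edgeR called none of the members in these 3 comparisons, with 4, 2 and 2 at an unadjusted p of 0.05, which is 0.748%, 0.374% and 0.374% against 0.761%, 0.362% and 0.543% of all sites. DESeq2 also called none, with 18, 11 and 13, which is 3.36%, 2.06% and 2.43% against 3.57%, 1.47% and 1.97% of all sites. The median log2 value of Foxp3 over IgG was 1.64 in WT, next to 1.27 over all sites, and 0.07 in R397W, next to 0.05. Without WT Foxp3 replicate 1 the WT test called 8 members (1.5%, against 0.616% of all sites). Without WT Foxp3 replicate 2 it called 22 (4.11%, against 3.42%), of which 21 had 0 in both WT IgG libraries, and the test of the difference between genotypes also called 22 (4.11%, against 3.30%).

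Reads in both WT Foxp3 libraries and neither WT IgG library were found at 44 members (8.22%, against 4.91% of all sites), and in R397W the like pattern was found at 10 (1.87%, against 1.61%). No IgG library of either genotype had a read at 56 members (10.5%, against 8.48% of all sites), and at 16 of these both WT Foxp3 libraries had reads (2.99%, against 1.30%). Across the members, log2 values of WT Foxp3 replicate 1 correlated with those of WT Foxp3 replicate 2 at a Pearson r of 0.44, of R397W Foxp3 replicate 1 at 0.52 and of WT IgG replicate 1 at 0.53 (535 sites, a description). The pattern across sites in that library was thus no less like that of WT IgG replicate 1 than that of its own replicate. Libraries numbered 1 share the denser coverage.

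The Foxp3 libraries showed no shift between genotypes at the 42 members with reads in all 8 libraries. There the median log2 change was 0.01, with 21 of 42 lower in the fit. Without overlap 6 were lower (14.3%) and 5 higher (11.9%), and WT Foxp3 exceeded WT IgG at 9 (21.4%) and lay below at 9. R397W Foxp3 exceeded R397W IgG at 6 (14.3%) and lay below at 8. The median log2 value of Foxp3 over IgG still differed, at 0.14 in WT and -0.41 in R397W, which was not tested. All 938 listed sites with such coverage had a median genotype change of -0.02, with 15.9% lower and 14.3% higher. WT Foxp3 exceeded WT IgG at 18.4% of them, and R397W Foxp3 exceeded R397W IgG at 14.9%. Their median log2 value of Foxp3 over IgG was 0.05 in WT and 0.003 in R397W. This requirement leaves out every site at 0 in a library, and the sites kept are the better covered ones, with medians from 61.0 (WT IgG replicate 1) to 119 (R397W IgG replicate 2). Among them the highest ratio of mean WT Foxp3 to mean WT IgG was 12.8, at Itpkb, a kinase gene of inositol signalling downstream of the T cell receptor. Its values were 162 and 175 in WT Foxp3, 170 and 82.0 in R397W Foxp3, and with IgG 13.2 and 13.1 (WT) and 164 and 0.952 (R397W). The WT libraries were tight there and the R397W IgG libraries were not. Stx6, a SNARE gene, had a ratio of 5.47, with 38.1 and 14.6 in WT Foxp3 and 6.92 and 2.72 in WT IgG, against 23.0 and 2.34 in R397W Foxp3 and 49.6 and 6.66 in R397W IgG. Tasp1, a protease gene, had a ratio of 4.33 and overlapping values, 188 and 40.7 in WT Foxp3 against 48.4 and 4.35 in WT IgG. The strongest Alpk2 site ranked beside them at 4.15. The lowest ratios were 0.297 at Cdh1 (E-cadherin), with 37.2 and 11.5 in WT Foxp3 and 35.8 and 128 in WT IgG, and 0.334 at Ankrd6, with 32.0 and 15.4 against 24.5 and 118.

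Genes of effector Treg function were hosts in 6 of 37 cases, namely Havcr2, Ikzf3, Il1rl1, Nfil3, Rora and Tigit, with 14 sites. A listed site of any class lay in 13 of the 37. Of all 21900 protein-coding genes 401 were hosts, which stands beside the host counts of every list here. None of the 14 passed the genotype test, and 1 was lower and 1 higher without overlap, where the shares over all sites were 12.6% and 6.43%, which also stand beside the like counts of the lists that follow. The median log2 change was -0.53, next to -0.70 over all members. Il1rl1, the IL-33 receptor gene, had a weak site with 8.66 and 0 in WT Foxp3, 0 in both R397W Foxp3 libraries, with IgG 9.43 and 0 (WT) and 27.3 and 0 (R397W). Nfil3, a leucine zipper factor gene, had 27.7 and 0 in WT Foxp3, 8.38 and 183 in R397W Foxp3, and with IgG 43.4 and 1.09 (WT) and 44.6 and 0 (R397W). Neither site separated Foxp3 from IgG.

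Core Treg genes were hosts in 3 of 16 cases, Ctla4, Ikzf2 and Nt5e, with 4 sites and none passing. Ctla4, the inhibitory receptor through which Treg cells restrain costimulation, had 194 and 0 in WT Foxp3, 117 and 74.2 in R397W Foxp3, and with IgG 61.6 and 0 (WT) and 141 and 50.4 (R397W). The strongest site of Ikzf2, the gene of Helios, had 68.4 and 35.7 in WT Foxp3, 0 and 186 in R397W Foxp3, and with IgG 99.3 and 72.9 (WT) and 64.5 and 0 (R397W). Nt5e encodes CD73, the ectoenzyme that makes adenosine. It had 45.0 and 0 in WT Foxp3, 20.9 and 32.8 in R397W Foxp3, 0 in both WT IgG libraries, and 34.7 and 48.5 in R397W IgG. Genotypes overlapped at each of these sites.

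T cell receptor signalling and costimulation genes were hosts in 8 of 34 cases, with 17 sites, of which 1 was lower and none higher without overlap, and none passed. That site was in Zap70, the kinase that couples the receptor to its adaptors, with 29.4 and 30.7 in WT Foxp3, 6.28 and 0 in R397W Foxp3, and with IgG 17.0 and 0 (WT) and 17.4 and 0 (R397W). WT Foxp3 exceeded both WT IgG values there, and the log2 change was -3.52 (SE 3.33, adjusted p = 1, limma). Sla, a receptor-damping adaptor gene that lies within Tg, had a site with 64.1 and 43.0 in WT Foxp3, 60.7 and 15.6 in R397W Foxp3, and with IgG 32.7 and 3.26 (WT) and 4.96 and 0 (R397W). It is a site where Foxp3 exceeded IgG without overlap in both genotypes. Fyn, a receptor-proximal kinase gene, held 3 sites in 9.59 kb that summed to 84.9 and 0 in WT Foxp3, 33.5 and 40.6 in R397W Foxp3, 0 in both WT IgG libraries, and 32.2 and 28.6 in R397W IgG.

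Migration and adhesion genes were hosts in 6 of 30 cases (Arhgef3, Dock2, Dock8, Elmo1, Itgav and Itgb1), with 13 sites. WT Foxp3 exceeded WT IgG without overlap at 4 of the 13, where the share over all sites was 19.5%, and R397W Foxp3 exceeded R397W IgG at 1, where it was 10.4%. One site was lower and 1 higher in R397W without overlap, and none passed. The strongest Arhgef3 site, in a guanine nucleotide exchange factor gene, had 75.3 and 0.384 in WT Foxp3, 23.0 and 0 in R397W Foxp3, and with IgG 23.9 and 0 (WT) and 34.7 and 0 (R397W). Itgav and Itgb1, which encode integrin chains, held 3 sites each, all weak. The Itgav sites summed to 50.2 and 0 in WT Foxp3, 25.1 and 0 in R397W Foxp3, 0 in both WT IgG libraries, and 49.6 and 0 in R397W IgG.

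In the NF-kB and TNF receptor list 2 of 28 genes were hosts. Nfkb1, the gene of the p105 precursor and p50 subunit, held 2 sites. The first (135594403 on chromosome 3) had 45.9 and 29.6 in WT Foxp3, 77.5 and 104 in R397W Foxp3, and with IgG 64.8 and 64.2 (WT) and 89.3 and 212 (R397W), so that R397W was higher without overlap with both antibodies. The second had 157 and 83.3 in WT Foxp3, 149 and 58.6 in R397W Foxp3, and with IgG 93.0 and 0.544 (WT) and 166 and 0.952 (R397W). Tnfrsf8, the gene of CD30, had 32.9 and 0 in WT Foxp3, 0 in both R397W Foxp3 libraries, 0 in both WT IgG libraries, and 7.44 and 0 in R397W IgG. Only Il1rl1, Il6ra and Il6st of 41 cytokine and chemokine receptor genes were hosts, with a site each, and only Bach2 of 22 AP-1, IRF and NFAT factor genes, with 32.9 and 13.8 in WT Foxp3, 14.7 and 0 in R397W Foxp3, with IgG 0 and 18.5 (WT) and 0 in both R397W libraries. The naive and resting T cell list had 3 hosts of 16 (Bach2, Foxp1 and Il6st) with 4 sites, and the signal phosphatase list 2 of 27 (Ptpn13 and Rasa3) with 3 sites, all 3 lower in the fit and 2 without overlap. The lists of 10 B cell, 10 myeloid, 10 CD8 T and NK and 12 housekeeping genes held no host. With 401 hosts among 21900 genes, lists this short cannot tell that absence from the share over all genes.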

How the data were processed

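CUT&Tag libraries of sorted mouse Treg cells were made after fixation in 0.1% formaldehyde for 2 minutes, per the labels' protocols. The authors deposited a spike-in normalised signal per library at the common, cTreg-specific and eTreg-specific classes of site. The site calling, and the libraries it used, are not described. Bowtie2 2.5.2, DiffBind 3.12.0, mm10 and dm6 stand in the submitters' processing notes, without roles. In each library and file, 100% of non-zero values divided into whole reads (tolerance 0.01), which were recovered. Each file had its own scaling factors, although the values are labelled spike-in normalised. Reads of WT Foxp3 replicate 1 were divided by 1.19 at cTreg-specific, 0.825 at common and 1.15 at eTreg-specific sites. How the spike-in entered these factors was not tested. Totals are reads in listed sites, not library depths.

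Coordinates are printed as deposited, in mm10, whose sequence GRCm38.p6 shares. Host genes and promoters came from RefSeq tables of that assembly. The main test was limma 3.58.1 (R 4.3.3, trended, two-sided) on log2(value + 1) over all 5521 sites without a filter, with Benjamini-Hochberg adjustment at 0.05. The genotype test used the 4 Foxp3 libraries and the others all 8. Where both libraries of a group were 0, the size of the change depended on the tool. At Tbc1d4 it was -5.98 in limma and -9.45 in edgeR, while the reads themselves bound it only at 14.6-fold or more. Where only 1 library of a group was 0, the limma change could be the larger. It was 3.45 against 1.51 in edgeR at Exoc2, and -5.17 against -3.70 at Acot7. Recovered reads were also tested with edgeR 4.0.16 and DESeq2 1.42.0, keeping each file's factors, and the fits were tested on simulated data. Alternatives were other pseudocounts, scalings and filters, no trend, a replicate block, each library left out, and the whole site inside the gene. Counting intervals cover counting error only, since no source says whether duplicates were removed.

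Named sites were those of the 12 genes with the most sites, the 6 with the highest WT Foxp3 mean, the 4 lower and 4 higher with the largest change without overlap, the extremes of the WT Foxp3 to IgG ratio among sites with reads in all 8 libraries, and up to 3 per gene list. Sites at the rule's edge, those with a listed gene start, Nfil3 and the Fyn and Itgav sums were added after their values were seen. The members and lists were chosen with earlier results of these data known. One of the marker genes looked up is not reported here.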

Additional observations from a re-analysis of the deposited data

How the results depend on the processing

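No member was called for genotype or for R397W Foxp3 over IgG, nor for WT Foxp3 over IgG or the difference between genotypes, under other pseudocounts, scalings, filters, tools or the whole-site rule. Leaving out a library gave 0 to 78 calls for genotype (78 without WT Foxp3 replicate 2, 14.6% of members against 11.6% of all sites), 0 to 22 for WT Foxp3 over IgG and 0 to 22 for the difference (22 is 4.11%, against 3.42% and 3.30% of all sites), with the lone library assumed to vary like the others. The median genotype change of -0.70 ranged from -2.04 to 0.15 when a library was left out. The replicate block called 0 members in all 4 comparisons. The labels do not tie numbers to mice, and deviations of same-numbered libraries correlated at 0.03 to 0.07 over members and at 0.04 to 0.17 over all sites. The remaining alternatives were chosen after seeing the data. Members higher in R397W without overlap fell from 28 to 17 with 1 factor per library over all sites. The Foxp3 to IgG ratio moved from 1.49 to 1.90 in WT with that factor and to 1.68 with the IgG library of the other number, and from 0.953 to 1.22 in R397W, or 1.10 with equal totals. The pairs of replicate 1 alone gave 362 members lower, 163 higher, 391 with WT and 237 with R397W Foxp3 above IgG, and those of replicate 2 alone 205, 146, 238 and 149. At Mpp2 the change of 0.17 became -0.069 with equal totals and -0.11 with 1 factor, and ranged from -1.10 to 1.44 when a library was left out. At Plekha2 the change of -0.72 ranged from -2.06 to 0.63 likewise. Of the 93 named sites, 12 and 28 changed sign on leaving out the first or the second R397W Foxp3 library, and 14 and 21 on leaving out the first or the second WT one. The cause was not tested. Weak sites limit the data, since 87 members had no read in either R397W Foxp3 library.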
